A study of Mus musculus with 2 samples.

Results

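The 9 microRNA (miRNA) genes Mir122, Mir375, Mir192, Mir194-1, Mir194-2, Mir206, Mir133b, Mir208a and Mir208b, which are known as markers of muscle, liver, gut and pancreatic islet, were read in the embryonic mouse forebrain. They were taken by name, through their Ensembl identifiers, from the 1973 miRNA genes counted, and all 9 had counts to report. The tissue was forebrain of embryos of the mouse strain B6NCrl at 12.5 days, with both sexes pooled, no treatment and no altered allele. There was 1 group with 2 biological replicates, a pool of 120 embryos and a pool of 68 embryos, each sequenced as 1 small RNA library of molecules under 30 nt. The libraries gave 4333194 and 4397107 reads on the strand of a miRNA gene, and levels are given as reads per 1000000 of these (CPM). With pools, the spread between embryos cannot be seen, and a difference between the pools cannot be told apart from a difference in dissection or library making.

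A miRNA is cut from a hairpin transcript and guides silencing proteins to messenger RNAs, which it recognises mainly through its seed, bases 2 to 8 from the 5′ end. Several miRNAs are made at high level in 1 or few organs. Mir206 and Mir133b lie on 1 non-coding transcript of skeletal muscle, Mir208a and Mir208b sit inside the genes of the cardiac myosin heavy chains, Mir122 is the leading miRNA of hepatocytes, and Mir192 and Mir194 are abundant in liver, gut and kidney. Mir375 is best known from the insulin-producing islet, where it restrains insulin release, and it is also made in other endocrine cells, among them those of the pituitary, which forms below the forebrain.

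The mature sequences decide which of these genes can be told apart by reads. Some of their arms are shown, 5′ to 3′ with the seed in capitals. They come from RefSeq (GRCm38.p6), where 8 of the 9 genes were matched and Mir122 was not. For Mir375 only the 5p arm was listed there and is shown, and its 3p arm is missing here. Counts are per gene, so they do not tell which arm of Mir375 was read. The arms miR-215-5p of Mir215 and miR-499-5p of Mir499 are added as relatives of miR-192-5p and miR-208.
miR-375-5p: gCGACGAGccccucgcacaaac
miR-192-5p: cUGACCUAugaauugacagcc
miR-215-5p: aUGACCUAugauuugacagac
miR-194-5p: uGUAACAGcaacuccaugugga
miR-194-1-3p: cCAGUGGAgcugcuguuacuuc
miR-194-2-3p: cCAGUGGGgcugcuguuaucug
miR-206-3p: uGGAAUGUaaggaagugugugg
miR-133b-3p: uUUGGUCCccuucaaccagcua
miR-208a-3p: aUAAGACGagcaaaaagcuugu
miR-208b-3p: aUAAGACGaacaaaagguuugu
miR-499-5p: uUAAGACUugcagugauguuu

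The letters show which genes are near relatives. The seeds of miR-208a-3p and miR-208b-3p are the same, and the arms differ by G10A, A16G and C18U, written as the base of miR-208a-3p, its position from 1 at the 5′ end, and the base of miR-208b-3p. The seed of miR-499-5p shares the first 6 of its 7 bases with that of miR-208b-3p. miR-192-5p and miR-215-5p have 1 seed and differ by C1A, A12U and C20A. These arms are distinct over their length, and no other annotated hairpin held any of miR-192-5p, miR-206-3p, miR-208a-3p and miR-208b-3p whole. By contrast, miR-194-5p is identical in Mir194-1 and Mir194-2, and the first 21 of the 22 bases of miR-133b-3p also occur in the hairpins of Mir133a-1 and Mir133a-2. Reads that match several places stood outside the gene counts, at 46.0% and 45.5% of mapped reads, so the levels of Mir194-1, Mir194-2 and Mir133b are uncertain and can be too low.

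The 9 genes together held 649 CPM in replicate 1 and 562 CPM in replicate 2, or 0.0606% of gene-strand reads on average. At least 10 reads in both libraries, the minimum for calling a gene detected, were found for 7 of the 9, against 20.4% of all 1973 genes, many of which are little supported annotations. The other 2 members were Mir194-1 and Mir133b. The median of the 9 was 14.8 CPM, below the 156 CPM of the 403 detected genes and above the 0 CPM of all genes. For comparison within the tissue, Mir137, a neural miRNA, stood at 5127 and 5286 CPM, and Mir92b, abundant in cortical progenitors, at 19420 and 19820 CPM. Of the 8 forebrain neural genes with counts, 6 were detected, among them Mir153 at 3304 and 2251 CPM and Mir9-3 at 713 and 714 CPM. The other detected neural genes were low, Mir9-2 at 5.31 and 5.91 CPM and Mir124a-2 at 5.54 and 7.05 CPM, both below Mir122 in each pool. Mir124a-1 and Mir124a-3, 2 of the 3 copies of the neuronal miR-124, each fell short of the minimum in 1 library. Reads shared by the copies of miR-124, or by those of miR-9, stood outside the counts as well. The levels of these genes can therefore be too low, also where they are set beside Mir122.

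**Figure D1:**
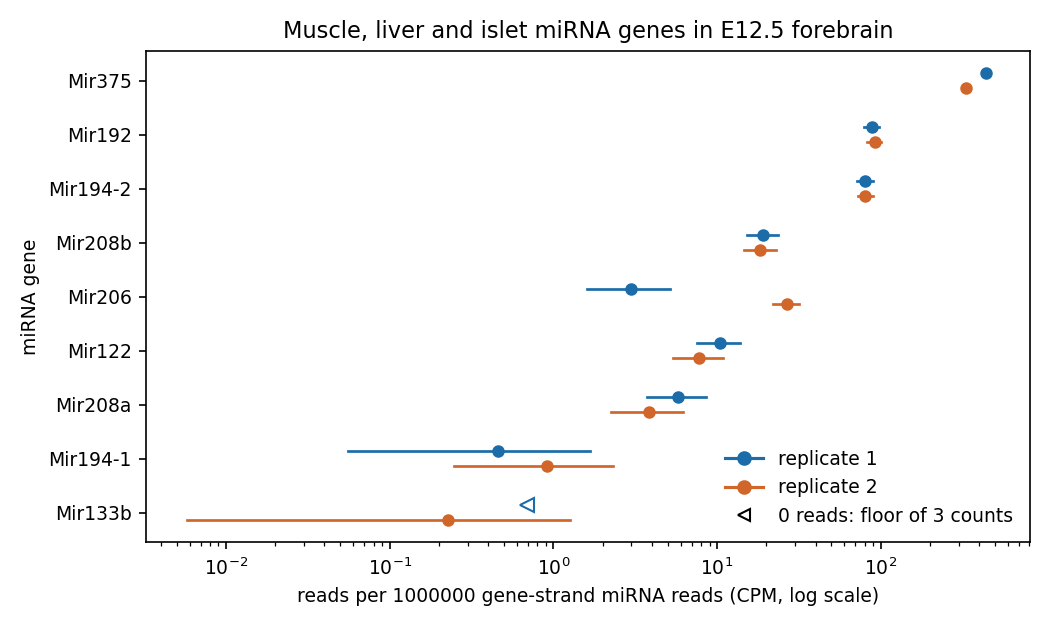
Level of each of the 9 genes in CPM on a log axis, with a point for each replicate and a line for its exact 95% Clopper-Pearson interval, which covers counting error only; the open triangle marks the floor of 3 counts where a library had 0 reads. Mir375 stood highest in both replicates at 442 and 332 CPM, and Mir206 was the gene whose replicates lay farthest apart, at 3.0 and 26.6 CPM.

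By mean CPM, levels ran in the order Mir375, Mir192, Mir194-2, Mir208b, Mir206, Mir122, Mir208a, Mir194-1 and Mir133b. Each read was taken as 1 whole mature miRNA, which counts per gene cannot show, so CPM was not divided by length. The order was the same for all 9 when CPM was divided by hairpin length. Not all neighbours in this order were separated. Mir375 lay above Mir192, and Mir194-2 above Mir208b, with intervals apart in both libraries. Mir192 and Mir194-2, Mir122 and Mir208a, and Mir194-1 and Mir133b had overlapping intervals in both libraries. Mir208a and Mir194-1 overlapped in replicate 2. The place of Mir206 depended on the library. In replicate 1 it lay below both Mir122 and Mir208a, and its interval met that of Mir208a. In replicate 2 it lay above both Mir122 and Mir208b, and its interval met that of Mir208b. Levels of different miRNAs also depend on how well each is captured in library making, which was not measured here.

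**Figure D2:**
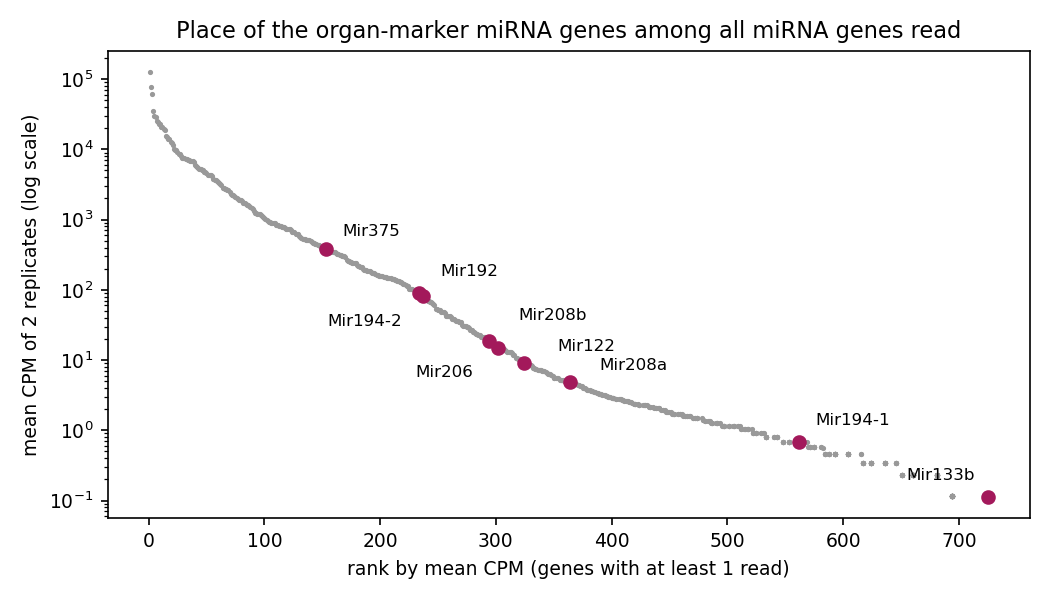
Mean CPM of the 2 replicates on a log axis against rank, for the 763 genes with at least 1 read, in grey, with the 9 muscle, liver and islet genes marked. Mir375 lay at rank 153 and Mir133b at rank 725, with Mir192 and Mir194-2 side by side at ranks 234 and 237.

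The islet and endocrine gene Mir375 was the most abundant of the set. It lies on chromosome 1 of mm10, from 74900658 to 74900721 on the minus strand (ENSMUSG00000065616.2), between the protein-coding genes Cryba2, 7514 bases away, and Cfap65, 1349 bases away, and inside neither. Replicate 1 gave 1916 reads of it and replicate 2 gave 1462, or 442 and 332 CPM, with a mean of 387 ± 77.6 CPM (SD, n = 2), which was 68.1% and 59.1% of all reads of the 9 genes. On mean level it stood 4.31-fold above Mir192 and 42.8-fold above Mir122, and 13.4-fold below Mir137. Its exact 95% intervals, 423 to 462 CPM and 316 to 350 CPM, did not overlap between the pools.

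Genes of a list of pituitary and neuroendocrine miRNAs lay on both sides of Mir375 in level. All 8 were detected, and together they held 13377 CPM in replicate 1 and 8714 CPM in replicate 2. This list joins the miR-7 genes, which are made in endocrine and neural cells, with the miR-200 family, which is made in the pituitary and in epithelia generally. Mir7b stood at 1405 and 1115 CPM. The miR-200 gene Mir429 stood at 6141 and 3908 CPM, Mir200b at 1859 and 1148 CPM, and Mir200c at 1769 and 1123 CPM. These 4 genes and Mir7-1, at 646 and 663 CPM, lay above Mir375 in both pools. Mir7-2, at 306 and 305 CPM, and Mir141, at 331 and 185 CPM, lay below it in both. Mir200a, at 920 and 266 CPM, lay above it in replicate 1 and below it in replicate 2. The counts of the miR-7a genes Mir7-1 and Mir7-2 leave out reads that match several places. Both can thus be too low, and their places beside Mir375 are uncertain. None of these genes is made in the pituitary alone, and the source of the Mir375 reads was not tested. In a bulk sample, fewer cells of a type and less RNA per cell cannot be told apart.

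The liver, gut and kidney genes came next, at 169 and 173 CPM in sum. Mir192 and Mir194-2 lie 115 bases apart on the plus strand of chromosome 19, Mir194-2 from 6264643 to 6264728 (ENSMUSG00000065582.1) and Mir192 from 6264844 to 6264932 (ENSMUSG00000065523.1), between the genes Atg2a and Ehd1. Mir192 had 381 and 403 reads, or 87.9 and 91.7 CPM. Mir194-2 had 348 and 354 reads, or 80.3 and 80.5 CPM. On the reads counted, the cluster partners stood at nearly the same level. Mir192 took 52.3% (exact 95% interval 48.6 to 55.9) and 53.2% (49.6 to 56.8) of the counted reads of the pair. Both intervals include an even division. However, reads that match both Mir194 genes equally stood outside the count of Mir194-2, so the share of Mir192 can be too high.

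The second cluster of this family was almost unread. On the plus strand of chromosome 1, Mir194-1 (ENSMUSG00000065581.1) spans 185313319 to 185313385 within an intron of the antisense gene 2010103J01Rik and opposite to an intron of Iars2, with Mir215 195 bases away on the same strand. Mir194-1 had 2 and 4 reads and Mir215 had 4 and 3 reads. These are 0.462 and 0.910 CPM for Mir194-1, close to the floor of 3 counts, 0.692 and 0.682 CPM. Of the counted reads of both Mir194 genes, Mir194-2 held 99.4% (exact 95% interval 98.0 to 99.9) in replicate 1 and 98.9% (97.2 to 99.7) in replicate 2. Reads that match both genes equally are not part of these shares. miR-192-5p and miR-215-5p carry the same seed, and of their 2 genes Mir192 held 99.0% and 99.3% of reads. The level of Mir215, whose 5p arm is distinct, was thus low like that of Mir194-1, whose 5p arm is not.

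Mir122, the hepatocyte miRNA, was read at a low level in both pools. Its gene (ENSMUSG00000065402.1) spans 65248861 to 65248926 on the plus strand of chromosome 18, in an exon of the long non-coding RNA AC157910.3. It had 45 and 34 reads, or 10.4 and 7.73 CPM, with intervals of 7.57 to 13.9 and 5.35 to 10.8 CPM that overlapped. Mir137 stood 575-fold above it. Mir802, another liver and pancreas miRNA, had 1 and 3 reads.

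The heart genes Mir208a and Mir208b were detected in both pools. Both lie on the minus strand of chromosome 14. Mir208a (ENSMUSG00000065432.1) spans 54949060 to 54949142 within an intron of Myh6, the alpha cardiac myosin heavy chain, and Mir208b (ENSMUSG00000077928.1) spans 54975700 to 54975776 within an intron of Myh7, the beta chain. Mir208a had 25 and 17 reads, or 5.77 and 3.87 CPM. Mir208b had 83 and 81 reads, or 19.2 and 18.4 CPM. Mir208b was the higher of the pair in both pools, with 76.9% (exact 95% interval 67.8 to 84.4) and 82.7% (73.7 to 89.6) of their reads, and the arms are distinct enough for the genes to be told apart. Mir499, whose 5p arm is the miR-208 relative shown above and which lies in a further myosin gene, had 22 and 19 reads, or 5.08 and 4.32 CPM.

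The skeletal muscle pair behaved otherwise. Mir206 (ENSMUSG00000065559.1) lies on the plus strand of chromosome 1, from 20679010 to 20679082, across an exon edge of the long non-coding RNA Gm28653, and Mir133b (ENSMUSG00000065480.1), from 20682769 to 20682887, lies 3686 bases further on in an exon of the same gene. Mir206 had 13 reads in replicate 1 and 117 in replicate 2, or 3.0 and 26.6 CPM. Mir133b had 0 and 1 reads, where the floor of 3 counts in replicate 1 is 0.692 CPM and the exact 95% upper limit of 0 reads is 0.851 CPM. Mir206 held 99.2% (exact 95% interval 95.4 to 99.98) of the pair's reads in replicate 2. Because most of miR-133b-3p is shared with Mir133a-1 and Mir133a-2, which both had 0 reads in both libraries, absence of miR-133 cannot be read from these counts.

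Counts of other muscle miRNAs were low as well. Of the 8 genes of this list 6 had counts, 3 were detected and 2 had 0 reads in both pools, and the sum was 22.4 and 22.1 CPM. Mir1a-1 had 1 and 0 reads. Mir1b had 35 and 23 reads, or 8.08 and 5.23 CPM, but it lies opposite to Mir1a-2, which had no counts of its own here. Mir486, which is also made in red blood cells and lies opposite to Mir486b, had 39 and 55 reads. On the reads counted, the muscle list held no gene at the level of Mir375 or Mir192. Reads that match several places stood outside these counts, so the levels, that of Mir1a-1 among them, can be too low. How many such reads belong to muscle genes was not tested.

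Differences between the pools were tested on reads with Fisher's exact test, two-sided, with Benjamini-Hochberg adjustment over the 511 genes that had at least 10 reads in the libraries together. The test compares these 2 libraries and not conditions, and it takes only counting error into account. At an adjusted p under 0.05 it found 2 of the 7 members tested, Mir375 and Mir206, against 32.7% of all genes tested, 20.2% higher and 12.5% lower in replicate 2. With edgeR's TMM scaling the 103 higher and 64 lower genes became 80 higher and 90 lower, and both members kept their direction and call. A difference of at least 2-fold as well was met by 1 member, Mir206, against 2.74% of genes tested. The median log2 ratio of the 7 members, on CPM + 1, was -0.05, beside 0.04 over all genes tested. At the adjusted p alone, 2 of 7 members is near the share of all genes, and the larger difference belonged to Mir206 and to no other member.

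Mir206 was higher in replicate 2 by 8.87-fold (exact 95% interval 4.99 to 17.2, adjusted p = 5.12e-21 by Fisher's exact test). Its log2 ratio on CPM + 1, 2.79, was second of the 511 genes tested, after Mir211, a miRNA of pigment cells and the eye, which had 46 reads in replicate 1 and 384 in replicate 2. Without the added 1 the order of these genes turned, since the ratio of Mir211 was 8.23. Without replicate 2 the level of Mir206 was 3.0 CPM in place of the mean of 14.8 ± 16.7 CPM (SD, n = 2), so its place among the members rests on that pool. No other muscle gene passed the test. The log2 ratio was -0.05 for Mir208b, -0.48 for Mir208a, -0.54 for Mir1b, -0.19 for Mir499 and 0.43 for Mir486, with adjusted p between 0.241 and 0.908 by the same exact test. The partner Mir133b had too few reads to be tested.

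Markers of other cell types and tissues, in or near the forebrain, also differed between the pools, some upward and some downward. Of 7 mesenchyme and mural genes 6 were higher in replicate 2 by Fisher's exact test, against 20.2% of all genes tested, and none was lower. Among the 6, Mir199a-2 and Mir214 lie close together on chromosome 1, and Mir143 and Mir145a on chromosome 18. The 6 therefore cannot be counted as independent. The sum of the 7 was 13294 CPM in replicate 1 and 16134 CPM in replicate 2. Mir214 stood at 3018 and 4075 CPM, Mir143 at 5258 and 6487 CPM, and Mir140 at 4599 and 4981 CPM. Both surface epithelium genes were higher too, at 2608 and 3377 CPM in sum, and so was the endothelial Mir126a, at 16564 and 21180 CPM. The 4 blood genes summed to 680 and 675 CPM, with 2 higher and 1 lower. The 6 eye genes summed to 5713 and 5176 CPM, with 2 higher, Mir211 and Mir204, and 3 lower. Mir204, a miRNA of the eye and choroid plexus, stood at 588 and 982 CPM, while the sensory genes Mir182, Mir183 and Mir96 were lower in replicate 2, at 2880 and 2371 CPM, 1638 and 1196 CPM, and 595 and 535 CPM. The 3 sensory genes lie close together on chromosome 6 and cannot be counted as independent either. No marker counted in these lists was at 0. Their part in the difference of Mir206 was not tested, and their ratios, apart from that of Mir211, were far smaller than its own.

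**Figure D3:**
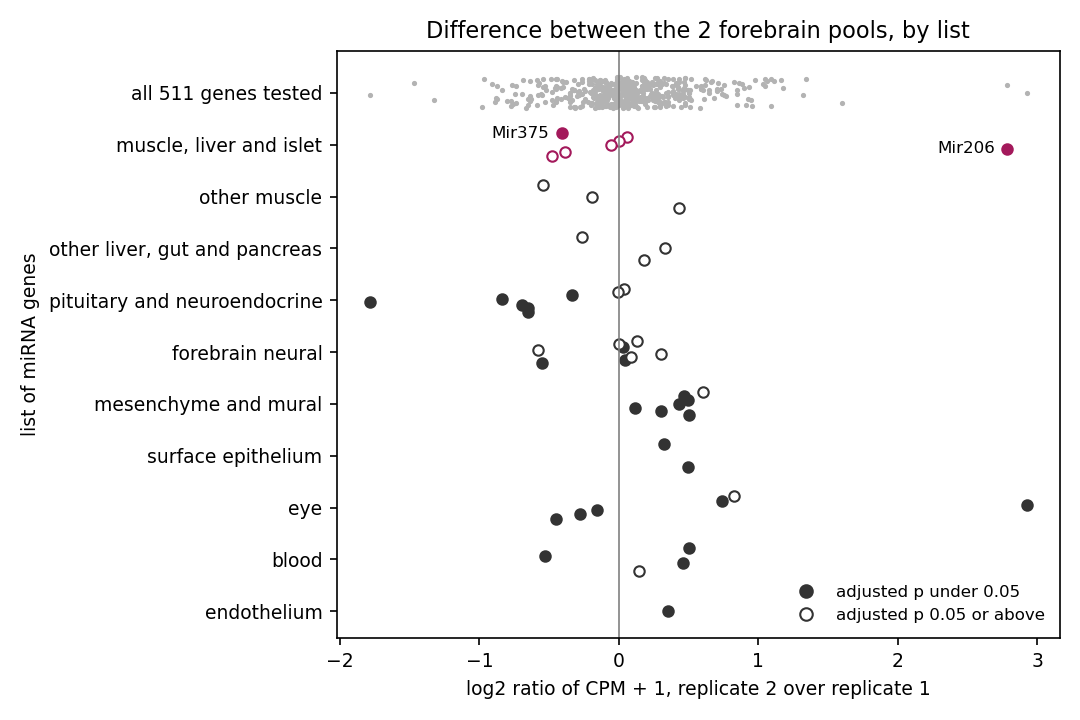
Log2 ratio of CPM + 1 in replicate 2 over replicate 1 for genes with at least 10 reads in the libraries together, by list, with all 511 genes tested in grey, spread vertically for display. Filled points have an adjusted p under 0.05 by Fisher's exact test; Mir206 at 2.79 stands apart from the other 6 members, which lie between -0.48 and 0.06.

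Mir375 was lower in replicate 2, at 0.752 times its level in replicate 1 (exact 95% interval 0.702 to 0.805, adjusted p = 1.3e-15 by Fisher's exact test). By size of log2 ratio, either way, it was in place 141 of 511, so most genes tested differed less, and it did not reach 2-fold. The coefficient of variation between the pools, estimated with edgeR over 403 genes, was 16.4%. On the pituitary and neuroendocrine list 6 of 8 genes were lower by the same test, against 12.5% of all genes tested, and none was higher. Mir200a, Mir200b and Mir429 lie close together on chromosome 4, and Mir141 and Mir200c on chromosome 6. These genes therefore cannot be counted as independent. The ratio was 0.289 for Mir200a, 0.558 for Mir141, 0.618 for Mir200b, 0.635 for Mir200c, 0.636 for Mir429 and 0.794 for Mir7b. The miR-7a genes Mir7-1 and Mir7-2 did not pass, at 1.03 and 0.997, without the reads that match several places. The ratio of Mir375, 0.752, lay between those of Mir429 and Mir7b. The part of these other genes in the difference of Mir375 was not tested.

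The remaining 5 members tested did not pass, and their intervals show the range that counting error alone leaves for each ratio. The ratio of replicate 2 to replicate 1 was 1.04 (exact 95% interval 0.904 to 1.20) for Mir192, 1.00 (0.862 to 1.17) for Mir194-2 and 0.962 (0.699 to 1.32) for Mir208b. For Mir122 it was 0.745 (0.463 to 1.19) and for Mir208a 0.670 (0.340 to 1.29). On the reads counted, Mir192 and Mir194-2 thus had narrow intervals. For Mir194-2 these leave out the reads that match both Mir194 genes, so its ratio is less certain than its interval shows. A 2-fold difference lay within the interval of both low-count genes Mir122 and Mir208a on the lower side. On the strand opposite to the genes, the 9 members had 1 read in all, at Mir192 in replicate 1.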

How the data were processed

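Small RNA libraries of 2 pools of forebrain were analysed from the gene tables. The deposited values are raw counts of reads per miRNA gene, for both strands, the gene strand and the opposite strand, made by the authors on mm10 and its annotation M4, per the file notes deposited beside them. The aligner, counter and trimming were not given in the sources used here. Reads rather than molecules were counted. The 4 rows that name no gene held 61.0% and 60.6% of reads and stayed out of library sizes and tests.

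Symbols, positions and hairpins came from GENCODE M21 (same build), where 1894 of 1973 genes matched. CPM used gene-strand reads. Fisher's exact test (SciPy 1.17.1), edgeR 4.0.16 and DESeq2 1.42.0 size factors were used. The exact test and edgeR's coefficient of variation were checked on simulated data, and the scalings were not. The design of 1 group of 2 samples leaves no contrast for edgeR's quasi-likelihood test. Intervals are Clopper-Pearson at 95% and, like floors of 3 counts, cover counting error only. Genes named were the members, up to 4 genes with the highest CPM in each of 9 other lists, and cluster and seed relatives; other list genes were chosen with their values in view. The members and lists were chosen with earlier results of these data known. Alternatives covered strand, scaling, filters, pseudocounts and leaving out each replicate.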

Additional observations from a re-analysis of the deposited data

Results flagged for a closer look

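Reads that matched several places lie outside the counts of every gene and were picked out because any such total exceeds what a count of 0 allows. They numbered 4213961 in replicate 1 and 4224434 in replicate 2. Of the members, Mir194-1, Mir194-2 and Mir133b share a stretch of at least 20 bases with another annotated hairpin, and the other 6 do not. How many of these reads belong to them was not tested.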

How the results depend on the processing

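Mir206 was the single member called in all 9 alternatives, with a log2 ratio of 1.49, at a pseudocount of 10, to 3.11 and an adjusted p of 3.5e-21 to 3.29e-20 by Fisher's exact test. Mir375 kept its direction and its side of the threshold, at -0.45 to -0.40, and the other members stayed, wherever tested, above the adjusted p of 0.05. Over all genes the count called was 13 to 15, except 9 with a minimum of 50 reads, where fewer genes were tested. The summed level of the members was 606 CPM, 562 to 649 CPM with a replicate left out, 694 CPM without the most abundant gene in the library size and 287 CPM over all mapped reads, shifts set by the denominator. Members detected numbered 7, 8 with a minimum of 1 read and 3 with a minimum of 100 reads in both libraries. No paired analysis was possible because there is 1 group. Dividing CPM by hairpin length was chosen after seeing the data. At this depth 1 read was 0.231 and 0.227 CPM, which limits Mir133b and Mir194-1.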

Other observations

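Genes of the exocrine pancreas, made there in the enzyme-secreting acinar cells, were read as well. Mir217 had 505 and 581 reads, or 117 and 132 CPM, and lay above Mir192 in both pools. Mir216b stood at 36.9 and 46.6 CPM and Mir216a at 33.0 and 27.3 CPM. The 3 genes lie on chromosome 11 in the annotation. None passed the comparison of the pools, with adjusted p between 0.0783 and 0.279 by Fisher's exact test.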
